A study of Homo sapiens with 12 samples.

Results

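Nonsense-mediated decay (NMD) factor genes were followed in newly made and total RNA of 22Rv1, a human cell line from prostate cancer whose SF3B1 had been edited to carry C1111S, a cysteine-to-serine change. The 9 genes were UPF1, UPF2, UPF3A, UPF3B, SMG1, SMG5, SMG6, SMG8 and SMG9, taken by name from 18650 coding genes, by a rule that uses no measured value. The cells of every group carried the edited SF3B1, a core subunit of the SF3b complex that binds the branch site in splicing, so all comparisons are within that genotype. The labels do not say whether the edited cells are 1 clone. Each of the 4 groups had 3 libraries: DMSO (0.1% v/v), WX-02-23 (20 µM, 3 h), WX-02-43 (20 µM, 3 h), which the labels call stereoprobes, and PladB (10 nM, 3 h), pladienolide B, an inhibitor of SF3b. All cells then received 4-thiouridine (100 µM, 1 h), a uridine analogue that is built into new RNA. After alkylation with iodoacetamide, incorporated 4-thiouridine is sequenced as C in place of T. A read with such a change, called a T>C read, stands for RNA made during labelling. The series sets out to profile transcriptome changes after these compounds.

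NMD removes mRNAs on which translation ends too early, and it also tunes the level of many normal transcripts. UPF1, an RNA helicase, gathers at the terminating ribosome, and UPF2 links it through UPF3A or UPF3B to the exon junction complex, the protein mark that splicing leaves on the mRNA. The kinase SMG1, held in check by SMG8 and SMG9, then phosphorylates UPF1. Phosphorylated UPF1 recruits SMG6, an endonuclease, and SMG5, which helps to bring in decay enzymes and a phosphatase. Messenger RNAs of several of these factors are themselves known substrates of NMD, and each of the 9 proteins is made from a spliced transcript.

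Reads were counted in 1 joined 3′ UTR interval per gene, in hg19. Among the core factors, UPF1 was counted at chromosome 19, 18976973 to 18979041 on the plus strand, UPF2 at chromosome 10, 11962021 to 11963296 on the minus strand, UPF3A at chromosome 13, 115070393 to 115071292 on the plus strand, and UPF3B at chromosome X, 118967989 to 118968840 on the minus strand. In the kinase complex, SMG1 was counted at chromosome 16, 18816175 to 18820890 on the minus strand, SMG8 at chromosome 17, 57292364 to 57292611 on the plus strand, and SMG9 at chromosome 19, 44232149 to 44235747 on the minus strand. SMG5 was counted at chromosome 1, 156219015 to 156220377 on the minus strand, and SMG6 at chromosome 17, 1963133 to 1964785 on the minus strand. No other coding gene's interval overlapped these. The transcripts differ widely in structure: SMG1 has 63 exons, UPF1 24, UPF2 and SMG5 22 each, SMG9 14, UPF3B 11, the SMG6 transcript used here 11, UPF3A 9 and SMG8 4, by GENCODE release 29. UPF3A is uncertain throughout, because 81.52% of its reads also mapped elsewhere, against at most 2.51% for the other 8 genes.

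Library totals ran from 24670716 to 42190854 reads, and 12331520 to 21414824 of these fell on coding genes, with 826780 to 2094108 T>C reads. The 9 genes together held 2732 to 8200 reads and 235 to 1015 T>C reads per library, so the newly made RNA of single members was measured coarsely. Spike-ins gave at most 12 reads per library, and every value is therefore relative to other RNA of the same library. In these bulk samples, fewer cells and less RNA per cell cannot be told apart. Luminal markers of the labelled prostate line were present, with HOXB13 at 178 to 302 CPM (reads scaled to library size, with TMM factors). The lowest of them were KLK2, at 35.6 to 63.9 CPM, and KLK3, at 4.23 to 17.5. The basal markers KRT5 and TP63 were at 0 in all 12 libraries. Of the stromal, endothelial and leukocyte markers the highest, COL1A1, stood at 2.14 to 10.8 CPM, a range that overlaps that of KLK3. Nothing in the labels says that replicates came from separate cultures. The p-values therefore measure the spread between these samples only, which may be technical.

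Total RNA of most NMD factors was lower after PladB, relative to the other RNA of the cells. Of the 9 genes, 6 fell against DMSO in all reads (UPF1, UPF2, UPF3B, SMG5, SMG6 and SMG9) and 0 rose. Over all 13178 coding genes tested, 16.3% fell and 13.9% rose in this comparison, by edgeR's quasi-likelihood test with Benjamini-Hochberg adjusted p under 0.05. The median log2 change was -1.14 over the 9 genes and -0.07 over all genes. Of all calls in this comparison 54% were lower, and 81.9% were when library totals replaced TMM scaling, with a median of -0.32 over all genes. On that scale 7 of the 9 genes were called lower, where 3295 of 13178 coding genes were. SMG1 was the gene added (-0.78, adjusted p = 0.013), and SMG8 stood at 0.38. The exceptions were UPF3A, SMG1 and SMG8, and SMG8 alone had a change above 0. The same 6 genes had PladB libraries that were all below all DMSO libraries, which held for 21.7% of coding genes.

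**Figure D1:**
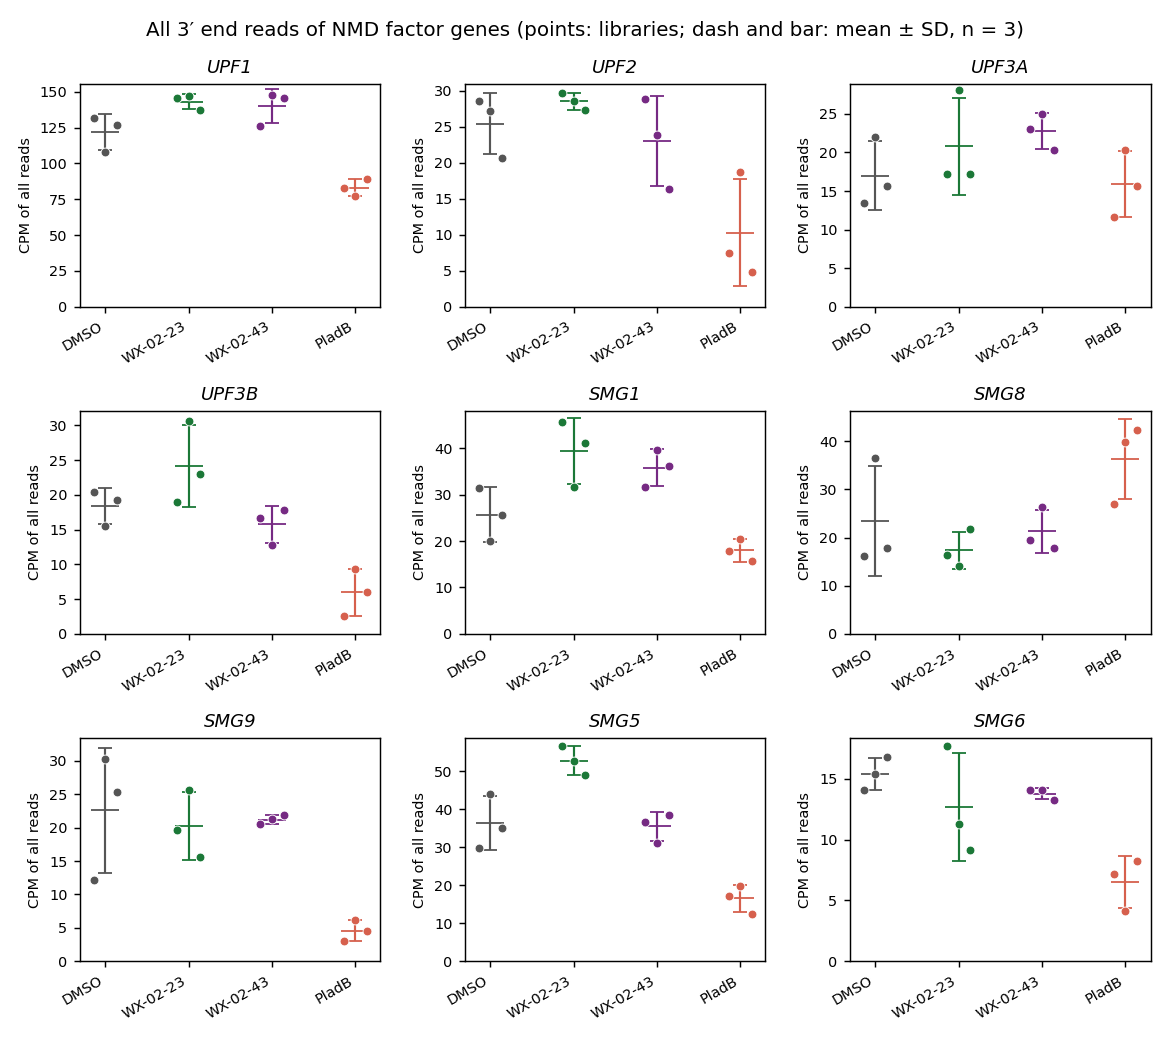
CPM of all reads (linear axis from 0) for each of the 9 NMD factor genes in the 4 groups. Points are the 3 libraries of a group and the horizontal line with bars is the mean ± SD. For UPF1, the PladB libraries sit between 77.4 and 89.2 and the DMSO libraries between 108 and 132, while for SMG8 the PladB mean of 36.4 is the highest of the 4 groups.

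Of the core factors, UPF1, the helicase on which the pathway turns, stood at 132, 108 and 127 CPM of all reads in the DMSO libraries and at 82.8, 77.4 and 89.2 in the PladB libraries. The PladB libraries were all lower, with a log2 change of -0.56 (SE 0.13, 95% interval -0.82 to -0.29, adjusted p = 0.000921). UPF2, the adaptor between UPF1 and the UPF3 proteins, stood at 28.6, 27.1 and 20.6 CPM in DMSO and at 7.52, 18.7 and 4.8 in PladB. Replicate 2 of PladB was thus closest to the controls, and the log2 change was -1.3 (SE 0.34, -1.98 to -0.62, adjusted p = 0.0025). Without that library the UPF2 change was -2.05, and leaving out any other gave -1.43 to -0.97, each called. UPF3B, the X-linked UPF3 protein that binds the exon junction complex, stood at 20.4, 15.5 and 19.3 CPM in DMSO and at 2.51, 9.36 and 6.04 in PladB. Its groups were well apart, and its log2 change was -1.63 (SE 0.37, -2.38 to -0.88, adjusted p = 0.000647). Its paralogue UPF3A stood at 13.4 to 22.0 CPM in DMSO and 11.7 to 20.3 in PladB. The UPF3A groups overlapped, with a log2 change of -0.1 (-0.72 to 0.52, adjusted p = 0.861), and the multimapping share given above limits this value.

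The kinase complex moved unevenly under PladB. SMG9, a partner that binds the kinase together with SMG8, stood at 12.1, 30.3 and 25.3 CPM of all reads in DMSO and at 3.06, 6.12 and 4.51 in PladB. This was the largest fall among the 9 genes, with a log2 change of -2.31 (SE 0.36, -3.04 to -1.58, adjusted p = 3e-06), and 4.39% of all tested genes had a lower change. SMG1, the kinase itself, stood at 31.5, 19.9 and 25.7 CPM in DMSO and at 17.9, 20.4 and 15.6 in PladB. DMSO replicate 2 lay inside the PladB range, and the log2 change of -0.52 did not pass the test (SE 0.24, -1.01 to -0.02, adjusted p = 0.109). SMG8 stood at 16.1, 36.6 and 17.8 CPM in DMSO and at 26.9, 39.8 and 42.4 in PladB. DMSO replicate 2 was high, inside the PladB range, and the other DMSO libraries were below all of them. The log2 change of SMG8 was 0.63 (SE 0.29, 0.04 to 1.22) and did not pass the test (adjusted p = 0.101), although 87.2% of tested genes had a lower change. Without DMSO replicate 2, the change was 1.1 with adjusted p = 0.00662, and SMG1 was then also called, at -0.68 with adjusted p = 0.0464.

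Both of the genes that act on phosphorylated UPF1 fell. SMG5 stood at 29.8, 44.0 and 35.2 CPM of all reads in DMSO and at 17.2, 19.7 and 12.5 in PladB, a log2 change of -1.14 (SE 0.23, -1.6 to -0.68, adjusted p = 0.000135). SMG6, the endonuclease that cuts near the stop codon, stood at 14.1, 15.4 and 16.8 CPM in DMSO and at 7.18, 4.13 and 8.23 in PladB. Its DMSO libraries were close together and all above the PladB libraries, with a log2 change of -1.24 (SE 0.39, -2.03 to -0.45, adjusted p = 0.0128). The SMG6 call was lost without PladB replicate 2, where the change was -1.01 with adjusted p = 0.0575. By group means of all reads, PladB was lowest of the 4 groups in 8 of the 9 genes and highest in SMG8. In UPF1, UPF3B, SMG9, SMG5 and SMG6 the PladB libraries were below every library of the next group. In UPF2, UPF3A and SMG1 PladB and the next group overlapped. How many of all coding genes show such a gap to the next group was not counted. For SMG8, the PladB and DMSO libraries overlapped.

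Summed over the 9 genes, the level, in CPM of coding reads without TMM factors, was 319 ± 7.37 in DMSO and 171 ± 17.6 in PladB (mean ± SD, n = 3). With WX-02-23 it was 378 ± 16.7, and with WX-02-43 it was 347 ± 16.1. These sums are weighted towards UPF1, which held more reads than any other of the 9 genes. SMG8, the only member with a change above 0 in all reads, took a larger part of that smaller sum under PladB. With the other members lower, its part of all reads was bound to rise, so this is no separate support for a rise of SMG8. It made up 15.2%, 18.4% and 21.3% of the reads of the 9 genes in the PladB libraries, against 3.84% to 11.5% in the other 9 libraries. Of the T>C reads of the 9 genes, SMG8 held 53.2% ± 6.5 in PladB and 15.5% ± 2.65 in DMSO, with 11.6% ± 2.49 in WX-02-23 and 10.8% ± 2.24 in WX-02-43. A share within a library shows unequal change among the 9 genes and does not depend on how libraries are scaled.

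**Figure D2:**
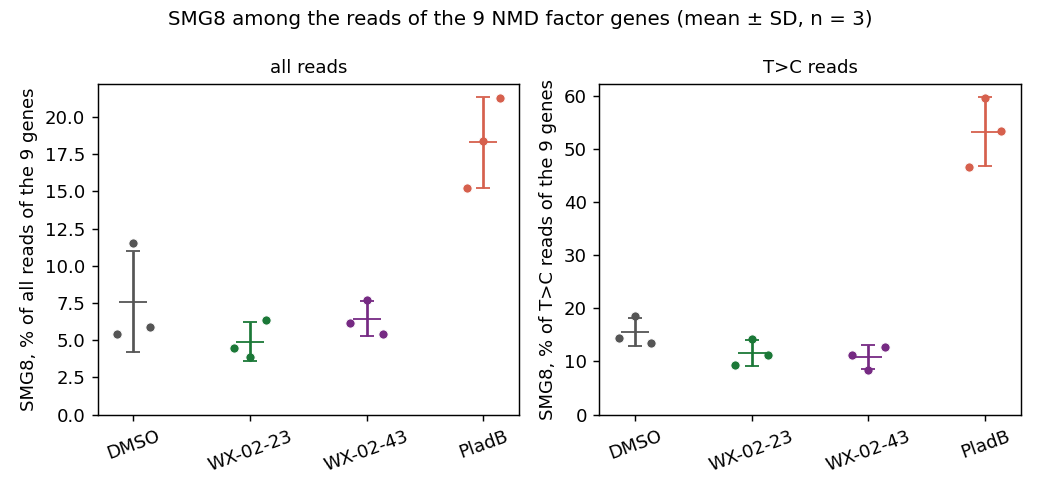
SMG8 reads as a percentage of the reads of all 9 NMD factor genes in each library, for all reads and for T>C reads, in the 4 groups. Points are libraries and lines are group means. The PladB libraries lie at 15.2% to 21.3% of all reads and 46.6% to 59.6% of T>C reads, above every other library in both.

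Newly made RNA of the 9 genes was measured with less precision. Library sizes here were those of the T>C reads, so a change is relative to the typical newly made transcript. Under PladB, 1 of the 9 genes fell (UPF2) and 0 rose, where 5.9% of 10722 coding genes tested fell and 4.73% rose. In edgeR 3 of the 9 had an unadjusted p under 0.05 (UPF2, SMG8 and SMG5), as had 24.1% of coding genes. The median log2 change was -1.53 over the 9 genes and -0.36 over all genes. UPF2 stood at 49.0, 68.6 and 51.1 T>C CPM in DMSO and at 1.98, 0 and 11.1 in PladB. The groups were far apart, with a log2 change of -3.7 (SE 1.02, -5.78 to -1.63, adjusted p = 0.0137), though the call was lost when only these groups entered the fit (adjusted p = 0.115). Without PladB replicate 3 the UPF2 change was -5.57, still called.

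SMG8 had the highest change of newly made RNA under PladB among the 9 genes. Its T>C CPM were 51.8, 98.7 and 57.9 in DMSO and 117, 187 and 295 in PladB. The groups did not overlap, which held in this direction for 10.4% of coding genes, and 93.8% of tested genes had a lower change. The log2 change of 1.52 (SE 0.53, 0.45 to 2.59) missed the threshold in edgeR (adjusted p = 0.0579) and passed it in DESeq2 (1.46, adjusted p = 0.00959), where 65.3% of all calls were lower. Without PladB replicate 1 it also passed in edgeR (1.8, adjusted p = 0.0343). With T>C reads scaled by all reads of the library, the SMG8 change was 0.72 (adjusted p = 0.39), and the median of all genes was then -1.15, with 95.4% of all calls lower, against 55.5% on the main scale.

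UPF1 stood at 146, 227 and 173 T>C CPM in DMSO and at 117, 115 and 151 in PladB. DMSO replicate 1 lay inside the PladB range, and the log2 change of -0.51 (-1.18 to 0.16) did not pass the test (adjusted p = 0.358). Scaled by all reads, UPF1 fell by 1.31 on the log2 scale (adjusted p = 0.00453). On that scale the median of all genes was -1.15, and 1750 of 10722 coding genes were called lower. SMG5 stood at 44.9, 72.8 and 26.8 T>C CPM in DMSO and at 0, 0 and 15.2 in PladB, without overlap, as in 17.4% of coding genes in this direction. Its log2 change of -3.26 had an interval of -6.42 to -0.1 (adjusted p = 0.192). Without PladB replicate 3, the PladB library in which SMG5 had T>C reads, it was called (adjusted p = 0.0184), as was SMG1 (-5.25, adjusted p = 0.0486). For UPF3A, UPF3B, SMG1, SMG6 and SMG9 the log2 changes were 0.14, -1.53, -1.37, -1.84 and -2.75 in that order, and each interval included 0. UPF1 and SMG8 had T>C reads in every library, while the other 7 genes had none in 1 to 4 of the 12.

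**Figure D3:**
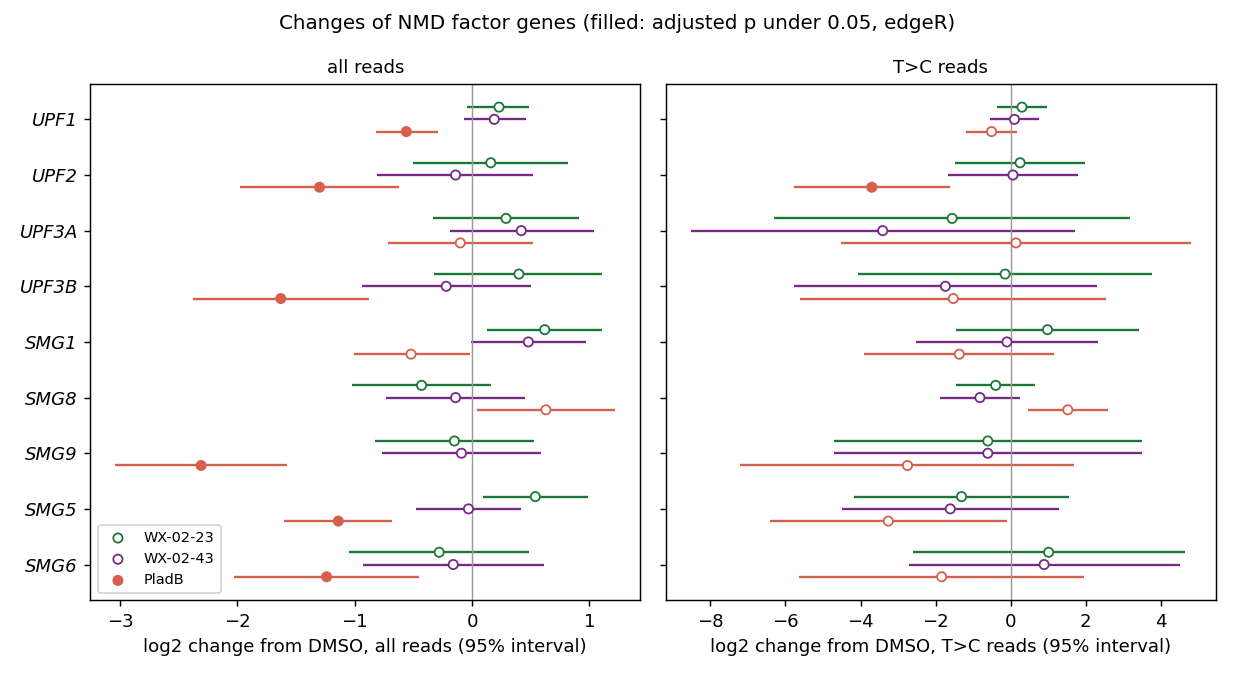
Log2 change against DMSO of each NMD factor gene under WX-02-23, WX-02-43 and PladB, with 95% intervals from the edgeR fit, for all reads and for T>C reads. Filled points passed an adjusted p under 0.05 and open points did not. In all reads, 6 PladB points from -2.31 (SMG9) to -0.56 (UPF1) are filled, and SMG8 lies to the other side of 0 at 0.63.

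The labelled share, the percentage of a gene's reads that carry T>C, sets new against total RNA within each library. SMG8 had 31.5%, 24.7% and 31.2% of its reads labelled in DMSO and 24.4%, 25.9% and 36.6% in PladB. These groups overlapped, and the log2 change of the odds of a T>C read was -0.02 (-1.72 to 1.68, adjusted p = 0.997), against a median of -1.3 over all genes. UPF1 was labelled at 14.3% ± 4.32 in DMSO and 8.34% ± 0.5 in PladB, and UPF2 at 21.2% ± 3.88 and 4.53% ± 6.61 (mean ± SD, n = 3). All PladB libraries were below all DMSO libraries for both, and for SMG5, which was labelled at 12.4% ± 4.42 in DMSO and 2.13% ± 3.69 in PladB. Groups without overlap in this direction made up 33.2% of coding genes. None of the 9 genes passed the test, where 11% of coding genes fell, which was 99.7% of all calls. With each read kind scaled to its own total, 72.1% of calls were lower and the median of all genes was -0.49. In edgeR 3 of them had an unadjusted p under 0.05, as had 28.4% of coding genes: UPF1 (-0.84, adjusted p = 0.165), UPF2 (-3.66, adjusted p = 0.131) and SMG5 (-3.92, adjusted p = 0.159). DESeq2 called 3 lower (UPF2, SMG1 and SMG5), where it called 2831 of 10722 coding genes lower. Without PladB replicate 3, edgeR called UPF2, SMG1 and SMG5. Fits without 1 library called 624 to 1187 coding genes. With each read kind scaled to its own total, UPF1 stood at 0.02 (adjusted p = 0.995) and SMG8 at 0.84 (adjusted p = 0.607), both with the sign changed, and UPF2 and SMG5 at -2.81 and -3.35 (adjusted p = 0.332 and 0.365).

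**Figure D4:**
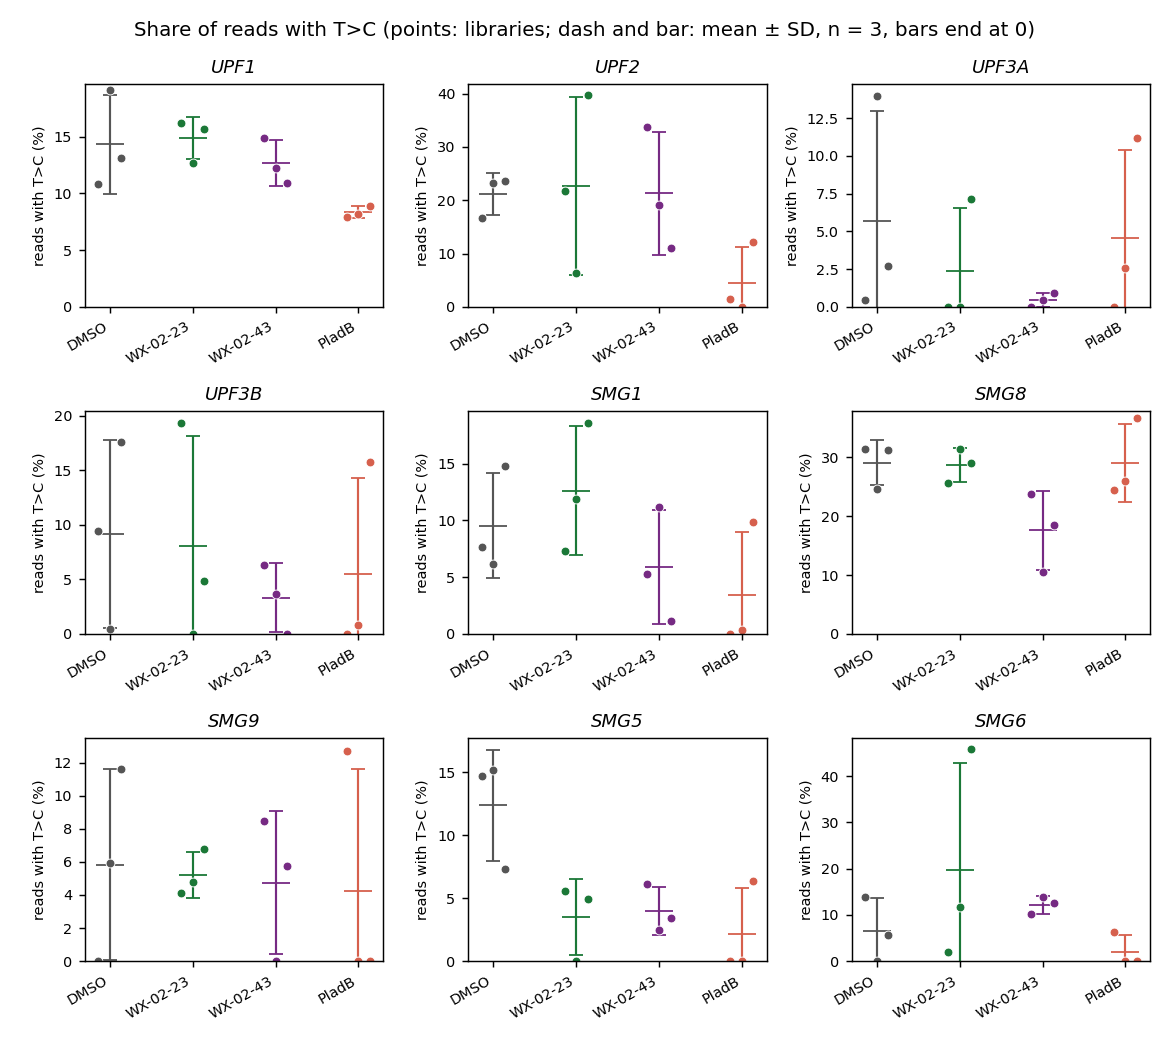
Percentage of each NMD factor gene's reads with T>C in the 4 groups (linear axis from 0, points are libraries, lines and bars are mean ± SD with bars ending at 0, n = 3). The SMG8 libraries lie at 24.7% to 31.5% in DMSO and 24.4% to 36.6% in PladB, while UPF1 shows means of 14.3% and 8.34%.

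A gene without a T>C read in a library may still be labelled at a low rate. Over the 9 genes and 12 libraries, 19 of 108 values were 0, and a count of 0 (3 counts as the limit) allowed a labelled share of up to 0.437% for SMG5 in WX-02-23 replicate 2 and up to 6.67% for UPF3B in PladB replicate 1. The reads carry no molecular identifiers, so these limits cover counting error only. Per covered T position, SMG8 was converted at 2.37% ± 0.952 in DMSO and 1.56% ± 0.586 in PladB, and UPF1 at 1.01% ± 0.211 and 0.548% ± 0.0778 (mean ± SD, n = 3). The UPF1 groups were apart on this scale and the SMG8 groups overlapped. How many of all coding genes were apart on it was not counted. In labelled share, 33.2% of coding genes were lower in PladB without overlap. Libraries free of 4-thiouridine were not analysed here, and T>C reads from errors or variants were not subtracted.

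The PladB change of coding genes differed with the number of exons, and SMG8 has the fewest of the 9. In all reads the median log2 change was 0.33 in 306 genes with 1 exon, 0.1 in 2515 genes with 2 to 4, 0.04 in 4116 genes with 5 to 9, -0.17 in 3965 genes with 10 to 19 and -0.35 in 1779 genes with 20 or more. In T>C reads the medians ran from 0.77 to -0.95 in the same order. With library totals in place of TMM the all-read medians ran from 0.07 to -0.61, and the classes with 2 to 4 and 5 to 9 exons turned negative. With T>C reads scaled by all reads they ran from -0.03 to -1.75, all negative, so the signs depend on the scaling and the order does not. These are descriptions across genes, which are not replicates. Among the 1038 genes with exactly 4 exons, the median was 0.14 in all reads, and SMG8 at 0.63 was above 78.9% of them. The other NMD factors did not follow the order of their exon numbers. SMG1, with 63 exons, stood at -0.52, above the value of SMG9, with 14, at -2.31, and of UPF3B, with 11, at -1.63. Whether the exon number accounts for any member's change was not tested.

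**Figure D5:**
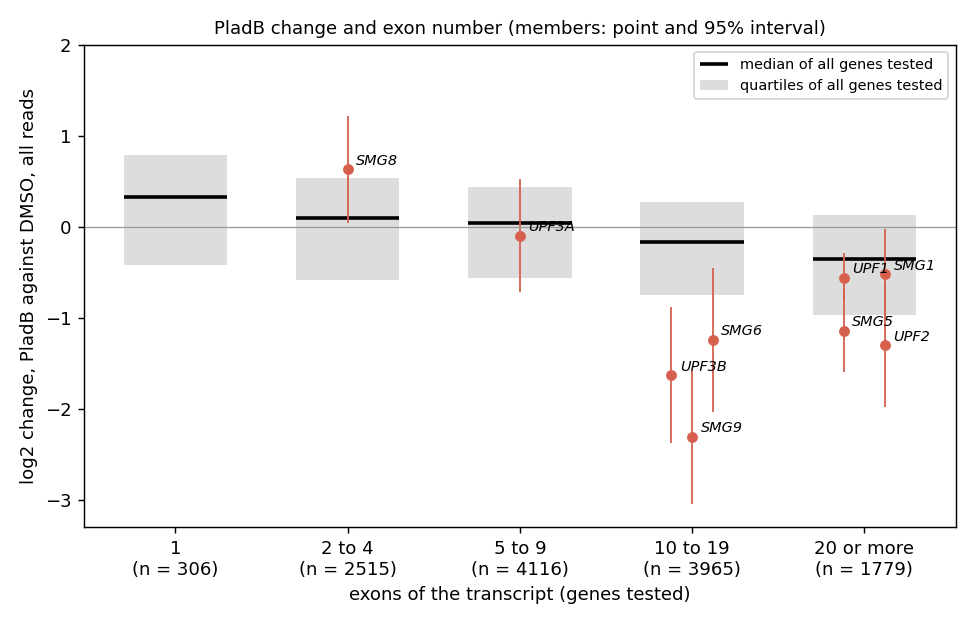
Log2 change in all reads between PladB and DMSO (vertical axis) against the number of exons (horizontal axis). Bars give the quartiles of all tested coding genes in 5 exon classes with the median marked, and labelled points are the 9 NMD factor genes. The class medians go from 0.33 (1 exon) to -0.35 (20 or more), and SMG9 at -2.31 and UPF3B at -1.63 lie far below their classes.

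Neither stereoprobe changed any of the 9 genes past the threshold in edgeR or DESeq2, in all reads, T>C reads or labelled share. With WX-02-23, 0.698% of coding genes were called in all reads, 0.224% in T>C reads and 0.00933% in labelled share. With WX-02-43 these shares were 0.167%, 0.0933% and 0. In T>C reads and in labelled share, none of the 9 genes had an unadjusted p under 0.05 in edgeR with either compound. Of coding genes, 4.52% and 3.36% had one with WX-02-23 and 3.81% and 3.11% with WX-02-43. In all reads, 2 of the 9 had one with WX-02-23, where 8.7% of coding genes did, and 0 with WX-02-43, where 5.85% did. SMG1 stood at 45.6, 31.7 and 41.1 CPM of all reads with WX-02-23, against 31.5, 19.9 and 25.7 in DMSO. These SMG1 libraries were just apart, with a log2 change of 0.62 (0.13 to 1.11, adjusted p = 0.358). SMG5 stood at 56.6, 52.7 and 49.0 CPM with WX-02-23, above all DMSO libraries, with a log2 change of 0.54 (0.09 to 0.99, adjusted p = 0.415). UPF1 was also higher in every WX-02-23 library, at 146, 147 and 137 CPM, with a log2 change of 0.23 (-0.04 to 0.49, adjusted p = 0.676). Groups without overlap and higher in WX-02-23 made up 6.89% of coding genes.

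With WX-02-43, SMG1 stood at 31.7, 39.5 and 36.2 CPM of all reads, above every DMSO library, with a log2 change of 0.48 (-0.01 to 0.97, adjusted p = 0.861). SMG6 stood at 14.1, 14.1 and 13.3 CPM, just below every DMSO library, with a log2 change of -0.16 (-0.93 to 0.61, adjusted p = 1). Groups without overlap made up 6.25% of coding genes in the higher and 5.69% in the lower direction. For UPF1, whose interval was narrowest, the data leave room for log2 changes of -0.07 to 0.46 with WX-02-43 and of -0.04 to 0.49 with WX-02-23. The PladB interval for UPF1, -0.82 to -0.29, lies apart from both, but PladB was given at another dose and no difference between PladB and a stereoprobe was tested.

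In newly made RNA under the stereoprobes, SMG8 stood at 44.1, 48.1 and 65.3 T>C CPM with WX-02-23 and at 49.2, 31.6 and 37.3 with WX-02-43, against 51.8 to 98.7 in DMSO. The WX-02-43 libraries were all below DMSO, with a log2 change of -0.82 (-1.88 to 0.25, adjusted p = 1), and SMG5 was also lower without overlap (-1.61, -4.5 to 1.29, adjusted p = 1). That pattern held in 5.34% of coding genes. Labelled shares of SMG8 were 28.7% ± 2.88 with WX-02-23 and 17.6% ± 6.66 with WX-02-43, and that of SMG5 was 3.49% ± 3.04 and 3.99% ± 1.88, against 12.4% ± 4.42 in DMSO (mean ± SD, n = 3). SMG5 was lower without overlap with both compounds and SMG8 with WX-02-43, as were 5.09% of coding genes with WX-02-23 and 6.18% with WX-02-43. No adjusted p of these was below 1.

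The stereoprobes, given at the same dose and time, were compared with each other as 1 pair. None of the 9 genes differed past the threshold, where 0.152% of coding genes did in all reads, 0.0466% in T>C reads and 0 in labelled share. In all reads, 1 of the 9 had an unadjusted p under 0.05 in edgeR, as had 5.51% of coding genes. This was SMG5, at 56.6, 52.7 and 49.0 CPM with WX-02-23 and 36.6, 31.2 and 38.6 with WX-02-43. The SMG5 libraries did not overlap, as in 6.18% of coding genes in this direction, and the log2 difference was 0.57 (0.12 to 1.02, adjusted p = 0.783). UPF3B stood at 19.0, 30.7 and 23.0 CPM with WX-02-23 and at 16.7, 12.8 and 17.8 with WX-02-43, also without overlap. Its log2 difference was 0.62 (-0.1 to 1.34, adjusted p = 0.954). For UPF1 the difference was 0.03 (-0.23 to 0.29), for SMG1 0.14 (-0.34 to 0.63) and for SMG8 -0.29 (-0.88 to 0.31). The intervals of the other members were -0.35 to 0.97 for UPF2, -0.75 to 0.49 for UPF3A, -0.74 to 0.62 for SMG9 and -0.89 to 0.65 for SMG6. In T>C reads, none of the 9 had an unadjusted p under 0.05, where 2.85% of coding genes did, and the intervals of all 9 included 0. In labelled share, SMG8 was higher in each WX-02-23 library than in each WX-02-43 library, as were 5.92% of coding genes, with a log2 odds difference of 0.98 (-0.73 to 2.68, adjusted p = 1).

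Genes that work beside the 9 were read from lists of known partners, to be set beside the shares of all genes called that are given above. Of 6 further NMD factors, PladB raised 2, lowered 2 and left 2 short of the test in all reads, with a median log2 change of 0.01. RUVBL2 and RUVBL1, ATPases that act on SMG1 and its relatives, rose by 0.55 (SE 0.17, adjusted p = 0.0103) and 0.31 (SE 0.12, adjusted p = 0.0477) on the log2 scale. Both calls were lost with library totals in place of TMM (0.29 and 0.05, adjusted p = 0.196 and 0.795) and without some of the libraries, RUVBL1 without any 1 of DMSO replicates 1 and 3 or the PladB replicates, and RUVBL2 without DMSO or PladB replicate 2. PNRC2, an adaptor between UPF1 and decapping, had a log2 change of -0.58 (SE 0.15, adjusted p = 0.00275), and DHX34, a helicase of the pathway, of -0.73 (SE 0.25, adjusted p = 0.0245). The DHX34 call was lost without DMSO replicate 1 or 2 or PladB replicate 1 (adjusted p = 0.0696, 0.0717 and 0.119), while that of PNRC2 held in every alternative. Of these factors, RUVBL1 had a lower labelled share under PladB (log2 odds change -2.59, SE 0.6, adjusted p = 0.0148), a call lost with each read kind scaled to its own total (-1.74, adjusted p = 0.125) and without DMSO replicate 1 (-2.3, adjusted p = 0.063).

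The exon junction complex, the mark that UPF3 proteins read, was split under PladB. In all reads 2 of 9 genes rose, 3 fell and 4 did not pass, with a median log2 change of 0.06. EIF4A3, the helicase that anchors the complex on RNA, stood at 206, 208 and 195 CPM in DMSO and at 275, 284 and 275 in PladB. These libraries were far apart for their spread, and the log2 change was 0.46 (SE 0.11, adjusted p = 0.00081), or 0.2 with library totals in place of TMM (adjusted p = 0.161). SAP18, a peripheral subunit, had a log2 change of 0.68 (SE 0.11, adjusted p = 3.23e-06), and of 1.46 in T>C reads (SE 0.33, adjusted p = 0.00271), where the call was lost with scaling by all reads (0.64, adjusted p = 0.192). PYM1, which takes the complex apart, stood at 57.7 ± 9.61 CPM in DMSO and 23.4 ± 3.66 in PladB (mean ± SD, n = 3), a log2 change of -1.3 (adjusted p = 2.47e-06). ACIN1, a scaffold beside SAP18, had a change of -0.86 (adjusted p = 2.79e-05). DESeq2 also called ACIN1 lower in all reads with WX-02-23 (-0.51, adjusted p = 0.0339) and WX-02-43 (-0.57, adjusted p = 0.0207), which edgeR did not. In T>C reads RNPS1, another peripheral factor, fell by 1.75 on the log2 scale (adjusted p = 0.013), and in labelled share RNPS1 and RBM8A, a core subunit, were called lower (-2.4 and -0.86, adjusted p = 0.00826 and 0.0299). The RNPS1 call in T>C reads was lost without DMSO replicate 1 (adjusted p = 0.0875), and both labelled share calls were lost with each read kind scaled to its own total (adjusted p = 0.111 and 1). That of RBM8A was also lost without DMSO replicate 1 or 2 or PladB replicate 2.

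Translation termination and recycling genes showed 0 calls of 4 in all reads, and none at T>C level or in labelled share among the 3 that could be tested. GSPT1, the termination GTPase, stood at 211 ± 2.68 CPM in DMSO and 243 ± 24.3 in PladB, and ABCE1, which recycles ribosomes, at 114 ± 9.84 and 91.9 ± 13.1 (mean ± SD, n = 3; adjusted p = 0.166 and 0.116). With library totals in place of TMM, ABCE1 and ETF1, a release factor, were called lower (-0.56 and -0.65, adjusted p = 0.00288 and 0.00118). Without PladB replicate 3 both were also called (adjusted p = 0.0487 and 0.027), and ETF1 without DMSO replicate 2 as well (adjusted p = 0.0389). In the decay machinery, 1 of 19 genes rose in all reads, 6 fell and 12 did not pass, with a median log2 change of -0.29. The gene that rose was LSM1, part of a ring that binds mRNA ends (0.52, named after its value was seen), and its call was lost with library totals in place of TMM (0.26, adjusted p = 0.259) and without DMSO replicate 1 or 3 or PladB replicate 2. The 4 with the smallest adjusted p were EDC3, DCP1B, DCP1A and EDC4, and their calls in all reads held in every alternative. Other decapping genes of the list did not pass, with changes of 0.35 for the enzyme DCP2 (adjusted p = 0.349), 0.26 for DDX6 (adjusted p = 0.0879) and 0 for PATL1 (adjusted p = 1). EDC3, an enhancer of decapping, stood at 34.1 ± 3.51 CPM in DMSO and 11.4 ± 4.01 in PladB, a log2 change of -1.57 (adjusted p = 1.19e-05). For DCP1B and DCP1A, partners of the decapping enzyme DCP2, the changes were -2.06 and -0.83 (adjusted p = 1.84e-05 and 5.49e-05), and for the scaffold EDC4 -0.6 (adjusted p = 0.00159). Both DCP1 genes also fell in T>C reads (-3.86 and -1.9, adjusted p = 0.00486 and 0.0437). The first call was lost in a fit of only these groups (adjusted p = 0.0778), and the DCP1B change was -4.78 without PladB replicate 2 and -3.23 without PladB replicate 1. The second was lost in most alternatives, without any 1 of the libraries of these groups other than DMSO replicate 2 and PladB replicate 3 among them, and without the latter it was -2.69. In labelled share 5 of the 19 were called lower, among them CNOT7 and CNOT1 of the deadenylase complex (-0.96 and -1.64, adjusted p = 0.0145 and 0.0324), the helicase DDX6 (-1.67, adjusted p = 0.0162) and the exonuclease DIS3L (-5.4, adjusted p = 0.0406). With each read kind scaled to its own total all 5 calls were lost, and the DIS3L call was lost without any 1 of the 6 libraries. Leaving out 1 library also ended the calls of CNOT1 (DMSO replicates 1 and 2, PladB replicates 1 and 2), CNOT7 (DMSO replicates 2 and 3) and DDX6 (DMSO replicate 1, PladB replicate 3).

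Known NMD targets were split under PladB, where in all reads 2 of 6 rose, 1 fell and 3 did not pass. DDIT3, a stress transcription factor, stood at 60.7, 85.5 and 81.1 CPM in DMSO and at 181, 200 and 183 in PladB. These libraries were far apart, and the log2 change was 1.31 (SE 0.14, adjusted p = 3.03e-09). GADD45B, a stress-induced regulator of kinase signalling, rose by 1.37 (SE 0.27, adjusted p = 0.000102), and ATF4, the master factor of the integrated stress response, had a change of -0.51 (SE 0.1, adjusted p = 6.57e-05). ATF3, a transcription factor downstream of ATF4, fell in T>C reads (-0.85, SE 0.27, adjusted p = 0.0332) and in labelled share (-3.03, adjusted p = 0.00138), as in labelled share did DDIT3 (-2.56, adjusted p = 0.0014) and GADD45A (-2.79, adjusted p = 0.0186). In all reads these 3 target calls (DDIT3, GADD45B and ATF4) held in every alternative, as did those of ATF3 and DDIT3 in labelled share. The ATF3 call in T>C reads was lost without any 1 of DMSO replicates 2 and 3 and PladB replicates 1 and 2, and GADD45A without DMSO replicate 1 or 2.

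WX-02-23 raised 3 of the same 6 targets in all reads, with a median log2 change of 0.48 over the list. ATF3 stood at 37.6, 55.9 and 69.3 CPM in DMSO and at 99.5, 115 and 84.5 with WX-02-23, and it rose by 0.88 on the log2 scale (SE 0.19, adjusted p = 0.00985). ATF4 and DDIT3 rose by 0.47 (SE 0.1, adjusted p = 0.00531) and 0.6 (SE 0.14, adjusted p = 0.026) on the log2 scale. Leaving out 1 library ended each of these calls. ATF3 was lost without DMSO replicate 1 or WX-02-23 replicate 2 (adjusted p = 0.112 and 0.115), ATF4 without WX-02-23 replicate 2 (adjusted p = 0.0675), and DDIT3 without DMSO replicate 1 or WX-02-23 replicate 1 or 3 (adjusted p = 0.206, 0.0608 and 0.234). These 3 genes are also known members of the integrated stress response. With WX-02-43, the ATF4, ATF3 and DDIT3 means were 538 ± 48.7, 79.9 ± 10.1 and 97.5 ± 5.79 CPM, and none of the 6 was called. In edgeR, the only other call of a listed gene with a stereoprobe was PATL1, a decapping scaffold, at 69.2 ± 21.6 CPM in DMSO and 41.0 ± 0.162 with WX-02-23 (mean ± SD, n = 3; log2 change -0.75, adjusted p = 0.0414). DMSO replicate 2 was the high PATL1 library, at 94.1 CPM, and without it the change was -0.47 (adjusted p = 0.467). The PATL1 call was also lost without any 1 of the WX-02-23 libraries. Between the stereoprobes, no listed gene was called in edgeR.

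The genes most alike in newly made RNA were found by Pearson's r of log2 T>C CPM over the 12 libraries, among 9460 genes. The libraries share their groups and depth, so this is a description. For UPF1 they were CLCN4 (r = 0.935), CBR4 (0.928) and RBM12 (0.918). RBM12 stood at mean T>C CPM of 162 in DMSO and 38.5 in PladB. CLCN4 and CBR4 were low, at 21.0 and 13.1 in DMSO and 0 and 0.461 in PladB, so their r rests partly on counts near 0. UPF1 itself stood at 182 in DMSO and 128 in PladB. For SMG8 they were EIF5A (r = 0.958), SF3B4 (0.956) and GPX4 (0.926). SF3B4, a subunit of the SF3b complex, stood at 259 in DMSO and 441 in PladB, and EIF5A, a translation factor, at 348 and 710. By group means, the 3 genes most like UPF1 were lower in PladB than in DMSO, and the 3 most like SMG8 were higher. These directions largely follow from choosing the genes by likeness over the same libraries.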

How the data were processed

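SLAM-seq 3′ end libraries (12) were mapped and counted by the authors with slamdunk 0.4.3 over RefSeq 3′ UTR intervals, per the file headers, on hg19, per the submitters' processing notes. The labels list the molecule as genomic DNA although the protocol isolates RNA. Each deposited file lists its intervals with raw counts of reads and of T>C reads, CPM, and the conversion rate as a fraction of covered T positions. Only counts entered the tests. CPM printed here were recomputed from the counts with TMM scaling, and the deposited CPM gave the library totals.

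Of 29255 intervals, 23086 were coding. Overlapping intervals of a gene were counted once, 42 of 43 names turned into dates were restored, and 23 chromosome Y intervals of the pseudoautosomal regions were dropped, which gave 18650 coding genes. Exon numbers from GENCODE release 29 were matched by RefSeq accession for 96.0% of them.

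Tests used edgeR 4.0.16 under R 4.3.3 (quasi-likelihood, all 12 libraries, group as the only term, filterByExpr, Benjamini-Hochberg adjustment over all genes tested, adjusted p under 0.05 a call). All 9 genes passed the filter. The labelled share was tested as T>C against other reads within each library, as a log2 odds change. DESeq2 1.42.0, other scalings, filters, sample sets and a replicate block were alternatives. The procedure was tested on simulated data in which every gene had the same set spread and only genes above a count floor were changed. That test does not cover the sparse and scattered T>C counts of most members. No 2 libraries were identical (66 pairs compared). The 9 genes and the partner lists were chosen with earlier results of these data known. Listed genes were named where called, up to 4 per list and comparison with the smallest adjusted p, or, where none was called, the 2 with the highest CPM. Values of some listed genes are not reported here.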

Additional observations from a re-analysis of the deposited data

Results flagged for a closer look

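UPF3B, which links the decay factors to the exon junction complex, was looked at again because of where its libraries lay in all reads under the stereoprobes. Every WX-02-23 library, at 19.0, 30.7 and 23.0 CPM, was above the DMSO mean of 18.4, and every WX-02-43 library, at 16.7, 12.8 and 17.8, was below it. Both groups overlapped the DMSO libraries, at 15.5 to 20.4, and neither change against DMSO passed edgeR's test (WX-02-23 0.4, -0.32 to 1.11, adjusted p = 0.857; WX-02-43 -0.22, -0.94 to 0.5, adjusted p = 1). The log2 difference between the compounds was 0.62 (95% interval -0.1 to 1.34), and edgeR's test of that difference did not pass the threshold (adjusted p = 0.954).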

How the results depend on the processing

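The count of NMD factor genes called after PladB depended on the processing. In T>C reads, where 1 was called, DESeq2 called 2 and scaling by all reads called 2. A fit of only the groups compared called 0 (with 34.5% of all calls lower), and leaving out each replicate gave 1 to 3. Of 10722 coding genes, DESeq2 called 694 higher and 1308 lower, and scaling by all reads 85 and 1750. The fit of only the groups compared called 324 of 8687 higher and 171 lower. Leaving out each replicate called 838 to 1152 coding genes. In labelled share, where 0 were called, DESeq2 called 3, and leaving out each replicate gave 0 to 3. Over coding genes, DESeq2 called 41 of 10722 higher and 2831 lower there, and leaving out each replicate called 624 to 1187. In all reads, where 6 were called, leaving out each replicate gave 5 to 8, and the other alternatives gave 6 or 7. Over coding genes, these fits called 3268 to 3654 and 3419 to 4132, in that order. With the stereoprobes, 0 were called under every alternative.

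Over the members' single changes, 421 of 427 alternative values kept their direction if called and their side of the threshold in T>C reads, 428 of 432 in all reads and 421 of 427 in labelled share. No called change reversed. Every value that crossed the threshold belonged to PladB against DMSO. The totals also include the stereoprobe comparisons, in which no member was called under any setting. Changes not called in either fit altered sign in 35, 14 and 41 of these values. Counts over all coding genes moved more: for PladB from 1140 to between 495 and 2002 in T>C reads and from 1181 to between 319 and 2872 in labelled share. For WX-02-23 they moved from 24 to between 12 and 74 in T>C reads, from 92 to between 41 and 157 in all reads and from 1 to between 0 and 21 in labelled share. For WX-02-43 they moved from 10 to between 8 and 51, from 22 to between 13 and 53, and from 0 to at most 7. For the pair of stereoprobes they moved from 5 to between 1 and 25, from 20 to between 7 and 35, and from 0 to at most 5. The causes were not tested.

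Same-numbered libraries did not deviate together (correlations of -0.032 to 0.04 over 18 pairs in all reads), so the numbers were not taken as pairs. With a replicate block, 1, 6 and 0 of the 9 genes were called after PladB in T>C reads, all reads and labelled share, and no member's call changed. Low T>C counts limit the 7 members other than UPF1 and SMG8.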

Other observations

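Noncoding copies of SMG1 had intervals of their own, which entered no test. SMG1P6 held 7683 reads over the 12 libraries, of which 96.3% were multimapping, and SMG1P3 held 6935, of which 94.5% were. In SMG1P2, the interval with 1506 reads had 1.3% multimapping reads. SMG1 itself held 6028 reads, of which 0.41% were multimapping.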
